A study of Mus musculus with 2 samples.

Results

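The Mir34 and Mir449 genes, 6 miRNA genes whose products share a seed, were examined in the hearts of mouse embryos at embryonic day 15.5. They were chosen by name, as the rows for Mir34a, Mir34b, Mir34c, Mir449a, Mir449b and Mir449c, and all 6 were found among the 1973 annotated miRNA genes of the count files. The study holds 1 group of 2 libraries of short RNA: replicate 2 came from the pooled hearts of 62 embryos and replicate 1 from those of 78. All embryos were of strain B6NCrl, both sexes were mixed in each pool, the hearts are labelled healthy, and the labels name no allele or agent. With no other group, the values describe the level of each member and how far the pools differed.

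miRNAs are cut from hairpin precursors and loaded into Argonaute proteins, where bases 2 to 8 of the mature strand, the seed, select target mRNAs to be repressed. The Mir34 and Mir449 genes form one seed family on 3 chromosomes. Mir34a is widely expressed, is activated by p53, represses cell-cycle and survival genes, and is known in the adult heart for increasing with age and injury. Mir34b and Mir34c, from a shared primary transcript, and the Mir449 genes are best known from multiciliated epithelia and from male germ cells, where they act with redundancy.

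The mature strands are shown because the shared seed defines the family. They were taken from RefSeq (GRCm38.p6), which matched 5 of the 6 members by symbol and gave 9 mature strands. Mir449b and miR-34c-5p were not used here. Each is written from its 5′ to its 3′ end, with the seed in capitals:
miR-449a-5p: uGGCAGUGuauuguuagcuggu
miR-449c-5p: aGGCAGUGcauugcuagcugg
miR-34a-5p: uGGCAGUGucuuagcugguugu
miR-34b-5p: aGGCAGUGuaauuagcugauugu
miR-34b-3p: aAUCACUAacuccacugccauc
miR-34c-3p: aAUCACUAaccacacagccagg
The 4 strands shown from the 5′ arm carry one seed, which 0 other mature strands among the 1738 in the table share. From the 3′ arm, miR-34b and miR-34c share a seed of their own. Among the 6 pairs of these 4 strands, which leave out the 5′ strands of Mir34c and Mir449b, miR-449a-5p and miR-449c-5p were the most alike. They have 18 of 21 compared bases in common, counted from the 5′ end without gaps, against 10 of 22 for miR-34b-5p and miR-449a-5p. miR-34a-5p has 15 of 22 bases in common with miR-449a-5p and 11 of 22 with miR-34b-5p.

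On the GRCm38 (mm10) assembly, Mir34a (ENSMUSG00000065493.1) lies on the plus strand of chromosome 4, positions 150068454 to 150068555. It sits in no annotated protein-coding gene, and its last 17 bases overlap Gm37795, a gene of the GENCODE class TEC. Mir34b (ENSMUSG00000065492.1, positions 51103562 to 51103645) and Mir34c (ENSMUSG00000065587.1, positions 51103034 to 51103110) lie 451 bases apart on the minus strand of chromosome 9. No annotated gene contains them on their own strand, and both lie opposite intron 1 of Btg4. Mir449c (ENSMUSG00000076146.1, positions 113035983 to 113036091), Mir449b (ENSMUSG00000078027.1, positions 113037419 to 113037498) and Mir449a (ENSMUSG00000065575.1, positions 113037534 to 113037624) follow each other on the plus strand of chromosome 13. All of them lie in intron 2 of Cdc20b, with 1327 bases between Mir449c and Mir449b and 35 between Mir449b and Mir449a. Upstream of Cdc20b on the same strand are Mcidas and Ccno, genes known for driving the formation of multiple cilia.

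The libraries held 5833156 counts on the strand of miRNA genes in replicate 2, against 3439539 in replicate 1. Levels are given as counts per 1000000 of these (CPM), so that 1 count is worth 0.171 CPM in replicate 2, against 0.291 CPM in replicate 1. Multiply matching reads were not assigned to genes and came to 30.1% of replicate 2, against 33.0% of replicate 1. None of the 9 mature strands matched a transcript of another gene exactly in the GENCODE M21 set, and 0 of the 5 hairpins with a RefSeq sequence shared a stretch of 20 bases with another miRNA hairpin there. Matches elsewhere in the genome were not examined. A count stands for a whole hairpin, so the arms are not told apart, and each read is 1 short RNA, so no correction for length applies. The heart muscle miRNAs Mir208b (37837 CPM in replicate 2, against 53878 CPM in replicate 1) and Mir208a (5801 and 5972 CPM) were abundant, and both are markers of the labelled tissue.

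Together the 6 members held 1324 CPM in replicate 2, against 1042 CPM in replicate 1, or 1183 ± 199 CPM (SD, n = 2). This is 0.132% of the counts in replicate 2 (exact binomial 95% interval 0.129% to 0.135%), against 0.104% in replicate 1 (0.101% to 0.108%). Detection, taken as 10 or more counts in each library, was reached by 4 of the 6 members, Mir449a, Mir34c, Mir34a and Mir34b, and by 327 of all 1973 genes. Only 1 count of the whole family lay on the opposite strand, at Mir34b in replicate 1. Fewer cells of a type and less RNA per cell cannot be told apart in these pooled tissues.

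Mir449a, the leading member, had 4351 counts in replicate 2, against 1482 in replicate 1. This made 746 CPM (exact binomial 95% interval 724 to 768) and 431 CPM (409 to 453), with a mean of 588 ± 223 CPM (SD, n = 2). It ranked 94 of 1973 genes in replicate 2, against 102 in replicate 1, and was the highest member in both pools. The intervals of the libraries did not overlap, with replicate 2 above replicate 1.

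The other Mir449 genes were at the limit of what was counted, although they lie in the same intron. Mir449c had 3 counts in replicate 2, against 1 in replicate 1, or 0.514 CPM (0.106 to 1.5) and 0.291 CPM (0.00736 to 1.62). Mir449b had 5 counts in replicate 2, or 0.857 CPM (0.278 to 2.00), and 0 in replicate 1. This 0 allows up to 0.872 CPM at the limit of 3 counts, and the exact 95% interval reaches 1.07 CPM. The ratio of counts of Mir449a to Mir449c was 1450 in replicate 2 (exact binomial 95% interval 496 to 7036), against 1482 in replicate 1 (266 to 58575). Against Mir449b, Mir449a was 870.2-fold higher in replicate 2 (373 to 2681). In replicate 1 Mir449a was at least 494-fold higher when the 0 of Mir449b is taken at the limit of 3 counts. The exact 95% interval there starts lower, at 401-fold. These are ratios of counts and need not be ratios of amounts in the tissue. Mir449b was not among the hairpins searched for shared stretches, so a loss of multiply matching reads was not examined for it.

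The hairpins of Mir449a and Mir449c are shown because neighbours with nearly the same 5′ strand differed this far in counts. The mature strands of both arms are in capitals:
Mir449a: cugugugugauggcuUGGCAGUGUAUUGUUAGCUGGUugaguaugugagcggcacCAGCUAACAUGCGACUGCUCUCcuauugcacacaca
Mir449c: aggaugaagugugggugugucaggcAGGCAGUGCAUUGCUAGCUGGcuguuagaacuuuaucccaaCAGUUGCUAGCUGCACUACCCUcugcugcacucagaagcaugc
The hairpin of Mir449a is 91 bases long and that of Mir449c 109. Despite the likeness of their 5′ strands, their longest run in common there is 7 bases.

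**Figure D1:**
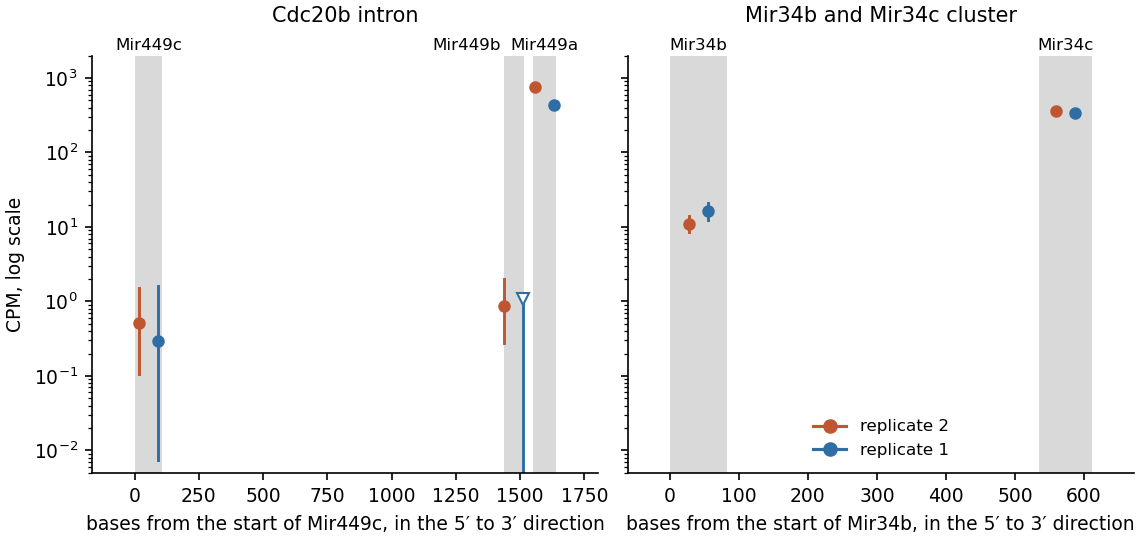
Level of each member (CPM, log scale) along its cluster, plotted against the distance in bases from the first hairpin in the direction of transcription, for the Mir449 genes in Cdc20b (left) and for Mir34b and Mir34c (right). Points are libraries, with replicate 2 left of replicate 1, vertical lines are exact binomial 95% intervals, grey bands are hairpins and the open triangle is the upper end of the interval for 0 counts; in each cluster the last hairpin, Mir449a or Mir34c, held the most counts.

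Mir34c, which with Mir34b comes from a single primary transcript, had 2074 counts in replicate 2, against 1148 in replicate 1. Its level was 356 CPM (340.4 to 371) in replicate 2, against 334 CPM (315 to 354) in replicate 1, 345 ± 15.4 CPM (SD, n = 2), at ranks 117 and 114. The intervals overlapped, and of the 4 detected members its levels were the closest between the pools.

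Mir34b had 64 counts in replicate 2, against 56 in replicate 1. Its level was 11.0 CPM (8.45 to 14.0) in replicate 2, against 16.3 CPM (12.3 to 21.1) in replicate 1, 13.6 ± 3.75 CPM (SD, n = 2), at ranks 279 and 254. The intervals of the libraries overlapped. The ratio of counts of Mir34c to Mir34b was 32.4 in replicate 2 (exact binomial 95% interval 25.3 to 42.2), against 20.5 in replicate 1 (15.7 to 27.3), which is 4.69 ± 0.47 on the log2 scale. As in the Cdc20b intron, hairpins of one cluster were thus counted at far from equal levels in both pools.

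Mir34a had 1226 counts in replicate 2, against 898 in replicate 1. Its level was 210.2 CPM (199 to 222) in replicate 2, against 261 CPM (244 to 279) in replicate 1, 236 ± 36.0 CPM (SD, n = 2), at ranks 147 and 125. The intervals did not overlap, with replicate 2 below replicate 1, which is the opposite order to that of Mir449a. The summed counts of Mir34b and Mir34c exceeded those of Mir34a by a ratio of 1.74 in replicate 2 (1.62 to 1.87), against 1.34 in replicate 1 (1.23 to 1.46).

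By mean level the order was Mir449a, Mir34c, Mir34a, Mir34b, Mir449b and Mir449c. Neighbours in this order were compared within each library by a two-sided exact binomial test of equal counts, adjusted over the 10 tests by Benjamini-Hochberg. The first 4 steps passed in both libraries, with the weakest at Mir34c over Mir34a in replicate 1 (1148 against 898 counts, adjusted p = 4.45e-08), and the ranges of the libraries did not overlap at any of these steps. Mir449b and Mir449c did not differ detectably at this depth (adjusted p = 0.807 in replicate 2 and 1 in replicate 1, exact test). These tests cover counting error alone.

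**Figure D2:**
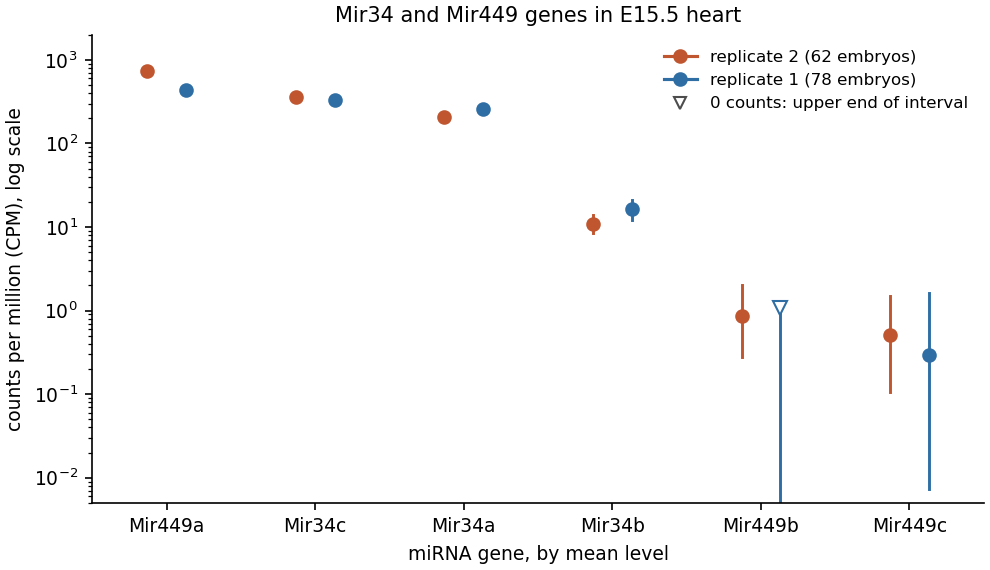
Level of each member in CPM (counts per 1000000, log scale), ordered by mean, with replicate 2 left of replicate 1; vertical lines are exact binomial 95% intervals and the open triangle is the upper end of the interval for 0 counts. Mir449a, Mir34c and Mir34a lie between 210.2 and 746 CPM, Mir34b at 11.0 and 16.3 CPM, and the plotted points of Mir449b and Mir449c below 1 CPM, with intervals reaching above it.

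The makeup of the family differed between the pools. Mir449a held 56.3% of the family's counts in replicate 2 (exact binomial 95% interval 55.2% to 57.4%), against 41.3% in replicate 1 (39.7% to 43.0%). Mir34c held 26.9% and 32.0%, Mir34a 15.9% and 25.0%, and Mir34b 0.829% and 1.56% in replicates 2 and 1. The share of Mir449a was thus larger in replicate 2 and the shares of the Mir34 genes smaller. Shares sum to 100%, so a larger share of Mir449a lowers the others by construction, and a smaller share need not be a lower level. Mir34c had 356 CPM in replicate 2, against 334 CPM in replicate 1. The direction of this small difference depended on how the libraries were scaled, as given below, and it passed under none of the scalings. A two-sided Fisher exact test of each member against the others, which needs no scaling between libraries, gave an adjusted p over the 6 members of 3.6e-49 for Mir449a, 3.78e-08 for Mir34c, 1.18e-29 for Mir34a and 0.00108 for Mir34b. For Mir449b and Mir449c, with at most 5 counts each, the adjusted p was 0.223 and 1. In counts, the Mir449 genes exceeded Mir34b and Mir34c together by a ratio of 2.04 in replicate 2 (1.94 to 2.15), against 1.23 in replicate 1 (1.14 to 1.33).

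**Figure D3:**
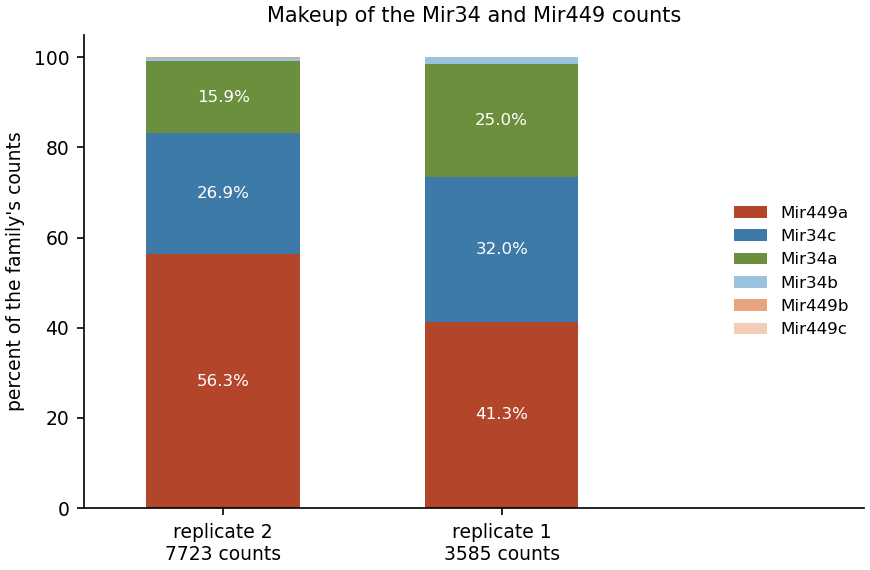
Percent of the family's counts held by each member in replicate 2 (left, 7723 counts) and replicate 1 (right, 3585 counts), as stacked bars from 0. Mir449a held 56.3% in replicate 2, against 41.3% in replicate 1, and Mir449b and Mir449c are too small to be seen.

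The difference between the pools was also tested per gene across the whole table, with library sizes scaled by TMM (trimmed mean of M values). The two-sided exact conditional binomial test sets the reads of the 2 libraries against counting noise and compares no conditions. Of the 413 genes with at least 10 counts summed, 46.5% had an adjusted p under 0.05. Among the 4 members tested 3 passed, 1 toward replicate 2 and 2 toward replicate 1, where 24.7% and 21.8% of all tested genes passed in these directions. By total counts in place of TMM, the calls over all genes split into 155 toward replicate 2 and 48 toward replicate 1, against 102 and 90 with TMM, since TMM lowered the median log2 ratio of detected genes by 0.17.

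Mir449a was 1.54-fold higher in replicate 2 than in replicate 1 after scaling, a log2 ratio of 0.62 (exact 95% interval 0.53 to 0.70, adjusted p = 4.15e-48, exact test). Mir34a was lower in replicate 2, with a log2 ratio of -0.49 (-0.61 to -0.36, adjusted p = 1.62e-13, exact test). Mir34b had a log2 ratio of -0.74 (-1.28 to -0.20, adjusted p = 0.0135, exact test), which did not pass by total counts (-0.57, adjusted p = 0.072). Mir34c had a log2 ratio of -0.08 (-0.19 to 0.02, adjusted p = 0.214, exact test), which was 0.091 by total counts. By DESeq2 size factors, another scaling, the ratio for Mir34c was -0.12 and only just missed the threshold (adjusted p = 0.0502, exact test). The size of the difference was larger than in 81.7% of the 327 detected genes for Mir449a, 85.6% for Mir34b, 73.1% for Mir34a and 19.0% for Mir34c, where the median absolute log2 ratio was 0.24. Members of one family thus lay on both sides of 0.

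**Figure D4:**
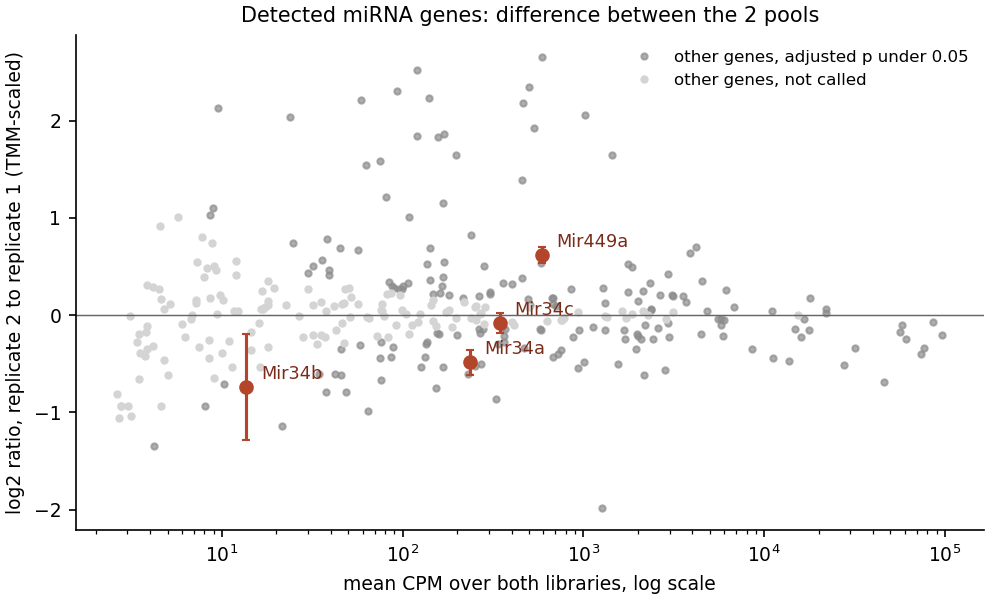
Log2 ratio of replicate 2 to replicate 1 (TMM-scaled) against mean CPM (log scale) for the 327 detected miRNA genes; dark grey marks an adjusted p under 0.05. The 4 detected members are in red with exact 95% intervals, Mir449a at 0.62 above 0 and Mir34a and Mir34b below 0.

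Other miRNAs known from epithelia, where the Mir449 genes are best known, differed in the same direction as Mir449a. The epithelium list (Mir200a, Mir200b, Mir200c, Mir141, Mir429, Mir203 and Mir205) summed to 6297 CPM in replicate 2, against 1821 CPM in replicate 1, with all 7 genes detected. Under each scaling 7 of 7 passed toward replicate 2, where 24.7% of all tested genes passed in this direction with TMM. Genes of this or another list can share a primary transcript, as Mir34b and Mir34c do, so calls within a list need not be independent. None of the list's members was at 0, and the lowest, Mir200a, had 115 CPM in replicate 2, against 34.0 CPM in replicate 1. The sum differed 3.46-fold between the pools, against 1.73-fold for Mir449a on the same scale of CPM. The part of epithelial cells in the difference of Mir449a was not tested. Mir34b and Mir34c, which are known from the same cells, together had 367 CPM in replicate 2, against 350.0 CPM in replicate 1. With TMM neither went toward replicate 2: Mir34b passed toward replicate 1 (log2 ratio -0.74), though not by total counts, and Mir34c did not pass (-0.08).

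Neural miRNAs, of which 8 of 9 symbols matched, summed to 573 CPM in replicate 2, against 158 CPM in replicate 1. Mir128-1, Mir137 and Mir128-2 passed toward replicate 2 under each scaling, while the neuron-defining Mir124a-1, Mir124a-2 and Mir124a-3 and also Mir9-2 were at 0 counts in both libraries. The hairpins of these Mir124a and Mir9 genes share a stretch of 20 bases with other copies, so reads that match several copies are missing from their counts, and 0 does not show that the miRNA was absent. Mir128-1 and Mir128-2 share one as well. The heart muscle list summed to 45595 CPM in replicate 2, against 62461 CPM in replicate 1, most of it Mir208b, with 3 of the 5 tested genes passing toward replicate 1 and 0 toward replicate 2. Mir1a-1, Mir133a-1 and Mir133a-2, 3 of the 7 genes matched in this list, had at most 7 counts in either library, and they too share 20 bases with other hairpins, so that multiply matching reads are missing from their counts. With TMM, 24.7% of all tested genes passed toward replicate 2 and 21.8% toward replicate 1. How far these cell types bear on the members was not tested.

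The miRNA genes listed from outside the family as responding to p53, as Mir34a does, were all detected (10 of 10). Toward replicate 1, as for Mir34a, 6 passed with TMM (5 by total counts), and 1 passed toward replicate 2 (3 by total counts). With TMM, 21.8% and 24.7% of all tested genes passed in these directions. The median log2 ratio of the 10 listed genes was -0.38, against 0.0045 for all detected genes. In CPM, which is not TMM-scaled, the sum of the list was higher in replicate 2 (97566 CPM) than in replicate 1 (91539 CPM). Most of it was Mir143, a miRNA of smooth muscle, with 88393 CPM in replicate 2, against 82454 CPM in replicate 1. Mir143 was among the 6 that passed toward replicate 1 with TMM, though its log2 ratio of -0.07 was 0.10 by total counts. Mir107 had 2455 CPM in replicate 2, against 3227 CPM in replicate 1, with a log2 ratio of -0.57 (adjusted p = 2.48e-206, exact test). The gene that passed toward replicate 2 was Mir200c (1672 and 357 CPM), which is also in the epithelium list. Mir15a, known for restraining the cell cycle, had 2403 CPM in replicate 2, against 2130 CPM in replicate 1, and did not pass with TMM (log2 ratio 0.0011). By total counts its log2 ratio was 0.17, in the direction in which 3 genes of the list passed under that scaling.

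**Figure D5:**
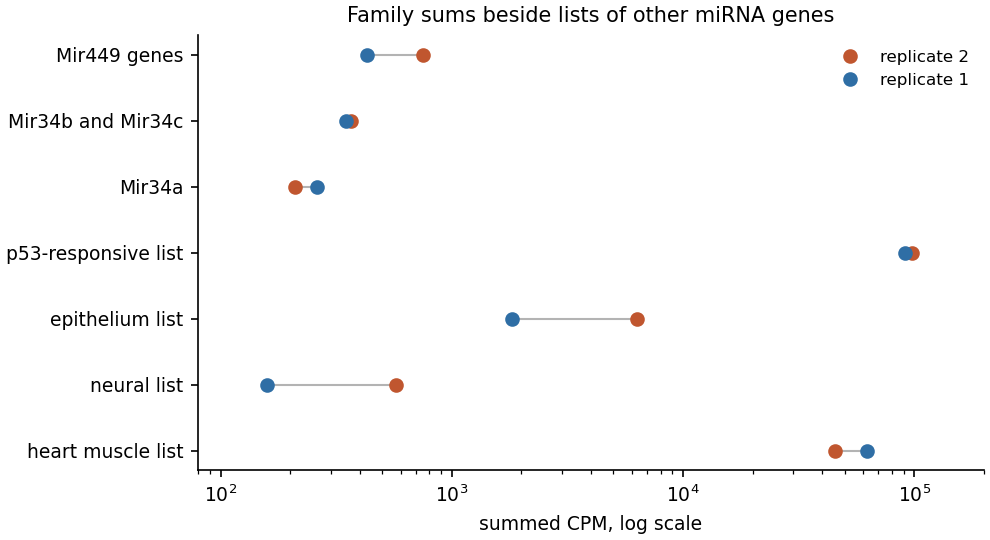
Summed CPM (log scale) of the Mir449 genes, of Mir34b with Mir34c, of Mir34a and of 4 lists of other miRNA genes, with replicate 2 in orange and replicate 1 in blue, joined by a grey line. The epithelium list (6297 and 1821 CPM) and the Mir449 genes (747 and 431 CPM) were higher in replicate 2. So, by a smaller factor, was the p53-responsive list (97566 and 91539 CPM). Mir34a (210.2 and 261 CPM) and the heart muscle list (45595 and 62461 CPM) were lower in replicate 2.

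The detected genes nearest to each member in log2(CPM + 0.5) over both libraries were also listed, as a description over 2 libraries that says nothing of shared control. Nearest to Mir449a was Mir455 (720 CPM in replicate 2, against 441 CPM in replicate 1) at a distance of 0.06, followed by Mir154 (0.44) and Mir134 (0.44). Mir34c was nearest to Mir339 (360.4 and 348 CPM, distance 0.06), Mir199b (0.14) and Mir24-2 (0.15). For Mir34a these were Mir16-2 (197 and 265 CPM, distance 0.09), Mir350 (0.13) and Mir302d (0.28), and for Mir34b Mir1968 (13.5 and 15.4 CPM, distance 0.30), Mir378b (0.36) and Mir293 (0.40).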

How the data were processed

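Short RNA from 2 pools of embryonic hearts was quantified by the authors, and each library was analysed from its own file. The deposited values are raw whole-number counts of reads for each miRNA gene, on either strand, on the strand of the gene and on the opposite strand. Per the descriptions deposited beside them, the build is mm10 and the annotation GENCODE M4. The sources used here do not name the aligner, the trimming or the counter. That the third column holds the strand of the gene was read from the values. Lines that name no gene (unmapped, multiply matching and unassigned reads) stayed out of totals.

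Gene IDs were matched without version to GENCODE M21, which gave symbols for 1894 of 1973 IDs. The members, lists and tests were chosen with earlier results of these data known. CPM, exact Clopper-Pearson 95% intervals, exact binomial, Fisher and conditional binomial tests used Python 3.11.15, scipy 1.17.1, numpy 2.4.6 and pandas 2.3.3, and edgeR 4.0.16 (TMM factors 1.06 in replicate 2 and 0.942 in replicate 1) and DESeq2 1.42.0 (size factors, as an alternative) ran under R 4.3.3. Without groups no model between conditions was fitted. Adjustment was by Benjamini-Hochberg at 0.05, over all genes with at least 10 counts summed for the comparison of libraries. All 6 members were named, with the 3 nearest detected genes of each detected member and leading genes of the lists; Mir1a-2 and Mir9-1 were not used here. The test was checked on counts simulated with set fold changes and counting noise alone, at total library sizes without TMM. That check says nothing of spread among pools. Files show no molecular identifiers, so counting error alone is covered by the intervals and by the limit of 3 counts that a count of 0 allows. The p-values likewise set reads against counting noise alone, within a library or between the 2 pools, and measure no spread among pools.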

Additional observations from a re-analysis of the deposited data

How the results depend on the processing

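Of 91 values recomputed under other settings, 80 kept their direction, their side of the threshold or, without a test, stayed within the spread between replicates. Where a library was left out, staying within that spread was fixed by construction, since the spread came from both libraries. The ratio to Mir449b was the exception, as it was set against its counting interval. Per 1000000 of all reads, levels were 290.4 for Mir449a, 169.7 for Mir34c, 116 for Mir34a, 6.69 for Mir34b and 0.199 for Mir449c, lower by construction since about as many reads again enter the total. With counts on either strand, Mir34c averaged 326 CPM. Adding 0.5 to each count gave 10.11 in place of 10.52 for the log2 ratio of Mir449a to Mir449c, which rests on 3 and 1 counts. By total counts 155 genes were called toward replicate 2 and 48 toward replicate 1, Mir34b missed the threshold (-0.57) and Mir34c changed sign (0.091), without passing under either scaling. Over all scalings and filters the log2 ratio of Mir449a ran between 0.58 and 0.79 and passed each time. Leaving out a library gives the other's values, and left no ratio to Mir449b without replicate 2. No paired analysis was possible because the study has 1 group. With 1 library per pool, the spread between pools cannot be told apart from that between preparations.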
